A study of Saccharomyces cerevisiae with 70 samples.

Results

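The genes described here make glutathione, keep it reduced and use it, or thioredoxin, against peroxides in budding yeast: GSH1 (YJL101C), GSH2 (YOL049W), GLR1 (YPL091W), GPX1 (YKL026C), GPX2 (YBR244W) and HYR1 (YIR037W). They are 6 genes, chosen by their function and matched by probe symbol, of 5577 genes named by a probe in the array table of the second series and of 5553 in each of the 2 tables of the first series. All 6 were matched in every table. Each was measured by 1 probe, except that GSH1 and HYR1 had 2 probes in menadione I.

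Glutathione is a tripeptide of glutamate, cysteine and glycine and the main small thiol of the yeast cell. Gsh1 (gamma-glutamylcysteine synthetase) makes the first and rate-limiting bond, Gsh2 (glutathione synthetase) adds glycine, and the reductase Glr1 returns oxidised glutathione to its thiol form with NADPH. The 3 glutathione peroxidase homologues are thiol enzymes: Gpx1 and Gpx2 reduce peroxides, and Hyr1, also called Gpx3 or Orp1, passes the peroxide signal to the transcription factor Yap1 by oxidising it.

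The arrays followed 2 oxidants over time in 4 courses. In peroxide I, cells synchronised with alpha factor, the mating pheromone that arrests cells in G1, were given 0.24 mM hydrogen peroxide (23 arrays at 21 times, 0 to 275 min). In menadione I, cells were given 2 mM menadione, a quinone that cycles inside the cell and makes superoxide (14 arrays, 0 to 210 min), and the labels give no synchronisation for this course. Peroxide II, with 17 arrays at 0 to 180 min, and menadione II, with 16 at 0 to 140 min, used synchronous cultures of strain DBY8724 released from G1 arrest, with no dose in the labels. RNA of the treated culture carried Cy5 on every array and RNA of an asynchronous reference culture Cy3, so a value is a log ratio of culture to reference, taken as log2 and centred on the array's median gene. No label names a genotype beyond the strain. When an oxidant was added is not in the labels used here, and no course is labelled untreated. The changes below therefore compare later windows of a course (22 to 50, 51 to 90 and after 90 min) with its own first 21 min, and they hold the cell cycle and the oxidant together. Each course is 1 culture, and p-values measure the spread between the times of a window, not between cultures.

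A few facts of the arrays bear on these values. The repeated arrays of peroxide I correlated at only 0.13 over genes at 20 min and at 0.41 at 63 min, and 2 arrays of that course correlated at -0.303, the lowest of any pair. The repeated 20 min arrays, averaged, make 1 of 3 points in the baseline of that course. In the second series the 14, 21 and 28 min arrays of peroxide II were scanned on another day than the other 14, and menadione II on a day of its own. The direction of the ratio is not stated in the files. The labels give the dyes. The mean of 16 pheromone-response genes, which are high in cells held by pheromone, was positive at 0 min in peroxide I (1.08), peroxide II (1.74) and menadione II (1.66). It was also positive in menadione I (1.52), but the labels give no arrest for that course. The value of menadione I therefore bears on the direction only if arrest is assumed. The 3 GPX genes are homologues, and cross-hybridisation between their spots was not tested.

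The peroxidase gene GPX2 had the largest fitted change of the 6 in every later window of every course. At 51 to 90 min it rose in all 4 courses, 19.0-fold in peroxide I, 28.4-fold in menadione I, 14.0-fold in peroxide II, and 7.9-fold for menadione II, and it passed the test there under every alternative that was run. GSH1 and GLR1 rose in both peroxide courses at that time, GSH1 also in menadione I, GSH2 in peroxide I and HYR1 in peroxide II. GPX1 passed in no comparison. After 90 min GPX2 passed above its baseline in both menadione courses, which end at 210 and 140 min. In the peroxide courses, which end at 275 and 180 min, it did so in the first part of that window, at 105 to 155 min of peroxide I (3.07 ± 0.48, adjusted p = 0.00228, limma) and at 100 to 140 min of peroxide II (2.67 ± 0.63, adjusted p = 0.0425, limma), a split chosen after the values were seen. Over all genes 42 of 5551 passed in that part of peroxide I and 30 of 5518 in that of peroxide II. GLR1 fell below its 51 to 90 min level in both peroxide courses. Its change of -1.31 ± 0.42 in menadione I did not pass (adjusted p = 0.613, limma).

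**Figure D1:**
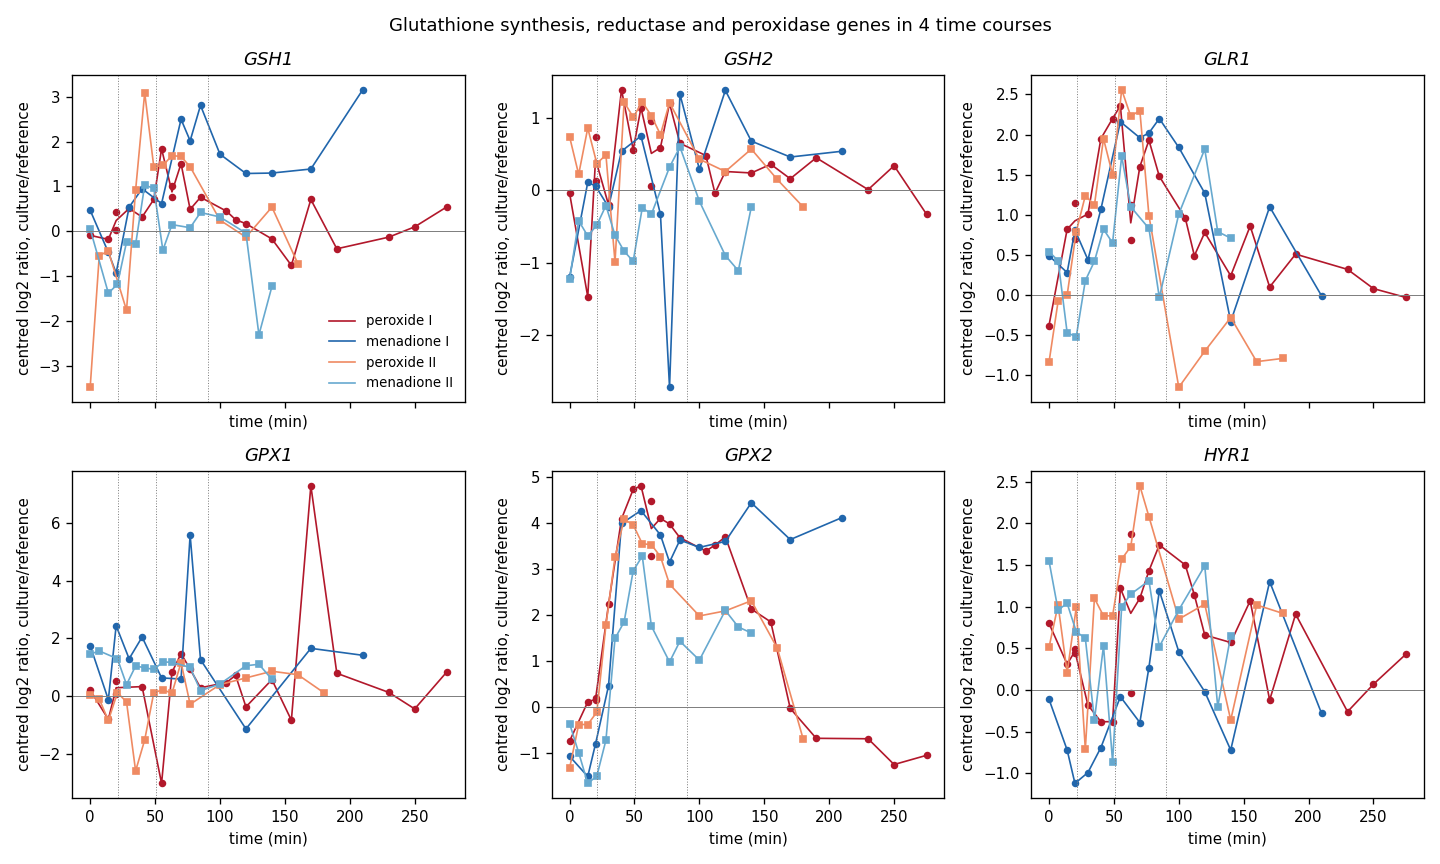
Centred log2 ratio of culture to reference (y axis) against time in min (x axis) for each of the 6 genes in the 4 courses; points are arrays, lines join times (means where an array was repeated), and dotted lines mark the window edges. The highest GPX2 value of a course was 3.28 to 4.81, against -1.66 to 0.17 in the first 21 min, and the last array stood at -1.05 in peroxide I, 4.12 in menadione I, -0.70 in peroxide II, and 1.61 for menadione II.

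The windows were compared in a linear model over all genes in limma, with Benjamini-Hochberg adjustment and a threshold of 0.05. At 51 to 90 min 4 of 6 members passed in peroxide I, all higher, where 15.3% of 5551 genes tested passed in either direction. In menadione I 2 of 6 passed, both higher, beside 1.91% of 5552 genes. In peroxide II 4 of 6 passed, all higher, beside 14% of 5519 genes. In menadione II 1 of 6 passed, beside 5.04% of 5537 genes. The median change of the 6 members was 1.15 in peroxide I, 1.23 in menadione I, 1.67 in peroxide II, and 0.84 for menadione II on the log2 scale, against medians over all genes tested of 0.03, 0.02, 0.05 and 0.

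At 22 to 50 min members passed in peroxide II. There 2 of 6 did so, GLR1 and GPX2, both higher, beside 3.94% of 5501 genes. In peroxide I 0 of 5 members passed beside 0.775% of 5548 genes, and GPX1 was not tested because only 1 array of that window had a value. In menadione I 0% of 5498 genes passed (174 at an unadjusted p under 0.05, smallest adjusted p 0.827), and in menadione II 0% of 5538 genes (444 at an unadjusted p under 0.05, smallest adjusted p 0.0983), members included.

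After 90 min GPX2 was the 1 member of 6 to pass in menadione I (1.31% of 5552 genes) and the 1 member of 6 in menadione II (2.89% of 5538 genes). No member passed in peroxide I (0.108% of 5551 genes) or peroxide II (0.634% of 5520 genes).

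**Figure D2:**
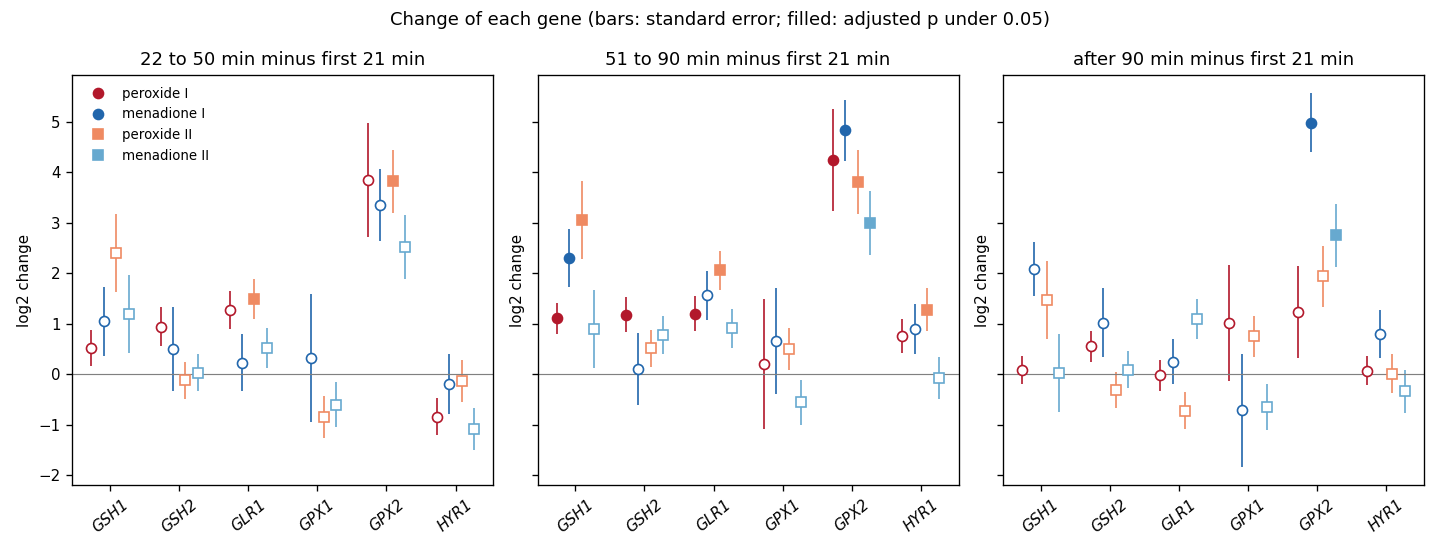
Log2 change of each gene from the first 21 min to each later window (y axis), by gene (x axis), with 1 symbol per course; bars are the standard error from the limma fit, filled symbols have an adjusted p under 0.05. GPX2 is filled in all 4 courses at 51 to 90 min and in both menadione courses after 90 min, and GPX1 is filled nowhere.

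GSH1, whose product limits the rate of glutathione synthesis, passed at 51 to 90 min in 3 of the 4 courses. In peroxide II its centred log2 ratios were 0.92, 3.09 and 1.44 at 35, 42 and 49 min and 1.47, 1.69, 1.67 and 1.44 at 56 to 77 min, against -3.48, -0.54 and -0.44 at 0, 7 and 14 min. The 4 values at 56 to 77 min averaged 1.57 ± 0.13 (SD, n = 4) and lay above all baseline values, while the 28 min array was low at -1.76. GSH1 rose by 3.05 ± 0.77 (SE) at 51 to 90 min (adjusted p = 0.00825, limma). The 0 min array carried much of this: without it the change was 2.05 ± 0.79 with an adjusted p of 0.0844, and with the scan day as a covariate it was 2.67 ± 0.80 with an adjusted p of 0.0586. At 22 to 50 min the change of 2.40 ± 0.77 missed the threshold (adjusted p = 0.0699, limma). It passed in 3 of 17 alternatives, with adjusted p-values up to 0.433. One of these left out the 28 min array (3.30 ± 0.68, adjusted p = 0.00195, limma).

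In peroxide I GSH1 stood at 1.84 at 55 min, 1.51 at 70 min and 0.49 to 0.88 at the other 3 times of the 51 to 90 min window, against -0.09, -0.18 and 0.24 at 0, 14 and 20 min. No value of the later window overlapped the baseline, and the rise was 1.11 ± 0.31 (adjusted p = 0.0173, limma). The call was lost without the 0 min array (1.07 ± 0.37, adjusted p = 0.0602), the 14 min array (1.02 ± 0.37, adjusted p = 0.0801) or the 55 min array (0.92 ± 0.30, adjusted p = 0.0515).

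In menadione I GSH1 stood at 0.62, 2.50, 2.02 and 2.81 at 55, 70, 77 and 85 min, against 0.47, -0.47 and -0.93 at 0, 14 and 20 min, a rise of 2.30 ± 0.57 (adjusted p = 0.0444, limma). It did not return to the baseline. After 90 min the values were 1.72, 1.29, 1.30 and 1.39 up to 170 min and 3.16 at 210 min. The change of 2.08 ± 0.54 had an adjusted p of 0.0738 (limma). The first of its 2 probes ran from 1.61 to 3.16 on these 5 arrays, the second from 0.05 to 1.84 on 4 of them. The 210 min value is the first probe alone and the earlier ones are means of both, so the step between them is not one of like values. Without any 1 of the 14, 20, 70, 77 or 85 min arrays the 51 to 90 min change was 1.99 to 2.29 with adjusted p-values from 0.0714 to 0.18. With other window edges it was 1.71 ± 0.72 (adjusted p = 0.375, limma). Scaled arrays (adjusted p = 0.106, limma) and the compared windows alone (adjusted p = 0.0792, limma) also lost the call, which was kept in 7 of 15 alternatives. The 2 GSH1 probes of this table correlated at 0.04. The first changed by 2.66 at 51 to 90 min, with values on 4 arrays from 2.02 to 3.36. The second changed by -1.49 with a value on 1 array (-2.12), so the rise rests on the first probe. That array was the 55 min one, where the first probe had its highest value of the window, 3.36. The 0.62 given for 55 min is therefore a mean of unlike probes, and the other values of that window are the first probe alone.

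In menadione II GSH1 passed in no window. It was highest at 42 and 49 min (1.03 and 0.96) and lowest at 130 min (-2.31), against baseline values of 0.05, -1.38 and -1.18 at 0, 14 and 21 min. Its change at 51 to 90 min was 0.90 ± 0.77 (adjusted p = 0.57, limma). The peroxide II change minus the menadione II change at that window was 2.15 (95% interval -0.07 to 4.38, adjusted p = 0.355), so a difference between the agents was not shown for GSH1.

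GSH2, the gene of the next step of synthesis, passed in 1 course. In peroxide I its ratios were 1.14, 0.51, 0.59, 1.20 and 0.65 at 55, 63, 70, 77 and 85 min, against -0.04, -1.47 and 0.43 at 0, 14 and 20 min, and it rose by 1.18 ± 0.35 (adjusted p = 0.0232, limma). The 20 min value is a mean of repeated arrays at 0.13 and 0.73, and the 63 min value of 0.96 and 0.06. The low 14 min array set the size: without it the change was 0.62 ± 0.33 (adjusted p = 0.262, limma). Without the 55 or the 77 min array the adjusted p was 0.0555 or 0.0571. Redo arrays of repeated times alone (0.99 ± 0.38, adjusted p = 0.0908, limma), scaled arrays (adjusted p = 0.0526, limma) and the compared windows alone (adjusted p = 0.0636, limma) also lost the call. It was kept in 12 of 18 alternatives.

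In peroxide II GSH2 stood at 0.77 to 1.22 at 56 to 77 min, against 0.74, 0.22, 0.86 and 0.37 at 0 to 21 min, a change of 0.51 ± 0.37 (adjusted p = 0.381, limma). In menadione II all 4 values at 51 to 90 min (-0.24, -0.33, 0.32 and 0.60) exceeded those of the first 21 min (-1.23 to -0.42), with a change of 0.78 ± 0.37 and an adjusted p of 0.232. In menadione I the change was 0.10 ± 0.71 (adjusted p = 0.972, limma), with 1 array at 77 min at -2.72 below the other 3 of its window (-0.33 to 1.33). The ratios of GSH1 and GSH2 across the arrays of a course correlated at r = 0.35 in peroxide I (23 arrays), 0.07 in menadione I (14), 0.29 in peroxide II (15), and 0.16 for menadione II (15).

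GLR1, which regenerates reduced glutathione, followed a pulse in both peroxide courses. In peroxide II it stood at 1.24, 1.12, 1.95 and 1.50 at 28 to 49 min and 2.56, 2.23, 2.30 and 0.99 at 56 to 77 min, against -0.84, -0.08, 0 and 0.79 at 0 to 21 min. Both later windows lay wholly above the baseline, with rises of 1.49 ± 0.39 (adjusted p = 0.0293, limma) and 2.06 ± 0.39 (adjusted p = 0.0009, limma). The 51 to 90 min call was kept in all 18 alternatives. The earlier one was kept in 12 of 18. It was lost without the 0 min (1.22 ± 0.41, adjusted p = 0.0918), 14 min (1.50, adjusted p = 0.0586), 42 min (1.32, adjusted p = 0.128) or 49 min array (1.47, adjusted p = 0.0748). The compared windows alone (1.49 ± 0.43, adjusted p = 0.311, limma) and other window edges (1.58 ± 0.43, adjusted p = 0.081, limma) also lost it.

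At 100 to 180 min of peroxide II GLR1 then stood at -1.15, -0.70, -0.28, -0.83 and -0.79, under the reference on every array. These 5 values overlapped the baseline, and the change from the first 21 min was -0.72 ± 0.37 (adjusted p = 0.484, limma). Against 51 to 90 min, a contrast chosen after the values were seen, GLR1 fell by 2.77 ± 0.37 on the log2 scale (adjusted p = 7.04e-05, limma), the 8th lowest change of 5538 genes, of which 3.12% passed.

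In peroxide I GLR1 stood at 1.01, 1.95 and 2.20 at 30, 40 and 49 min and 2.36, 0.90, 1.60, 1.93 and 1.48 at 55 to 85 min, against -0.38, 0.82 and 0.92 at 0, 14 and 20 min. The 63 min value, a mean of a repeated pair (0.68 and 1.12), lay under the highest baseline value. The rise at 51 to 90 min was 1.20 ± 0.34 (adjusted p = 0.0188, limma). It missed the threshold without the 0 min array (0.78 ± 0.36, adjusted p = 0.17) or the 55 min array (1.02 ± 0.34, adjusted p = 0.0556). Its values after 90 min ran from -0.03 to 0.96 with a median of 0.41, a fall of 1.22 ± 0.26 from 51 to 90 min (adjusted p = 0.00242, limma), where 14% of 5551 genes passed.

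In menadione I GLR1 averaged 2.09 ± 0.11 (SD, n = 4) at 51 to 90 min, with 2.16, 1.96, 2.02 and 2.20 at 55, 70, 77 and 85 min, against 0.49, 0.28 and 0.81 at 0, 14 and 20 min. The groups did not overlap, and the change of 1.56 ± 0.48 had an adjusted p of 0.109 (limma), with the spread pooled over all windows of that course. Of 15 alternatives GLR1 passed in 1, array weights (1.62 ± 0.43, adjusted p = 0.0418, limma), and the highest adjusted p was 0.328. In menadione II it stood at 1.73, 1.10, 0.83 and -0.03 at 56, 63, 77 and 85 min and at 1.01, 1.82, 0.79 and 0.71 at 100 to 140 min, against 0.54, 0.43, -0.47 and -0.52 at 0 to 21 min. All 4 late values lay above the baseline, and the late change was 1.09 ± 0.39 (adjusted p = 0.127, limma).

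The late course of GLR1 differed between peroxide II and menadione II, 1 culture each, in the fit of all their arrays, but not past the threshold with shared time as a block. From 51 to 90 min to the late window it changed by -2.77 ± 0.37 in peroxide II and by 0.18 ± 0.39 in menadione II. The difference was -2.95 (95% interval -4.06 to -1.84, adjusted p = 0.0135, limma), the 8th lowest value over the 5537 genes of that comparison, in which 0.307% passed. The contrast was chosen after the values were seen, and the late window runs to 180 min in peroxide II and to 140 min in menadione II. It passed in 25 of 26 alternatives, and all 26 gave -3.29 to -2.45. The alternative that missed used only the times that both courses have, with time as a block. That fit gave -2.60 ± 0.67 with an adjusted p of 0.351 (limma). The scan day covariate marked only the 14, 21 and 28 min arrays of peroxide II, outside both windows. It could not move this difference and is no check on the scan days of the 2 courses. Against the first 21 min, as fixed in the design, the difference of the late changes was -1.80 ± 0.54 and missed the threshold (adjusted p = 0.0867, limma).

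In the first series, over the same windows, GLR1 changed by -1.22 ± 0.26 in peroxide I (adjusted p = 0.00242, limma) and by -1.31 ± 0.42 in menadione I (adjusted p = 0.613, limma; 0% of 5552 genes passed there). The menadione I values were 1.84, 1.27, -0.33, 1.10 and -0.01 at 100, 120, 140, 170 and 210 min, all below the 1.96 to 2.20 of 51 to 90 min. These courses used different arrays, and the difference between them was not tested.

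**Figure D3:**
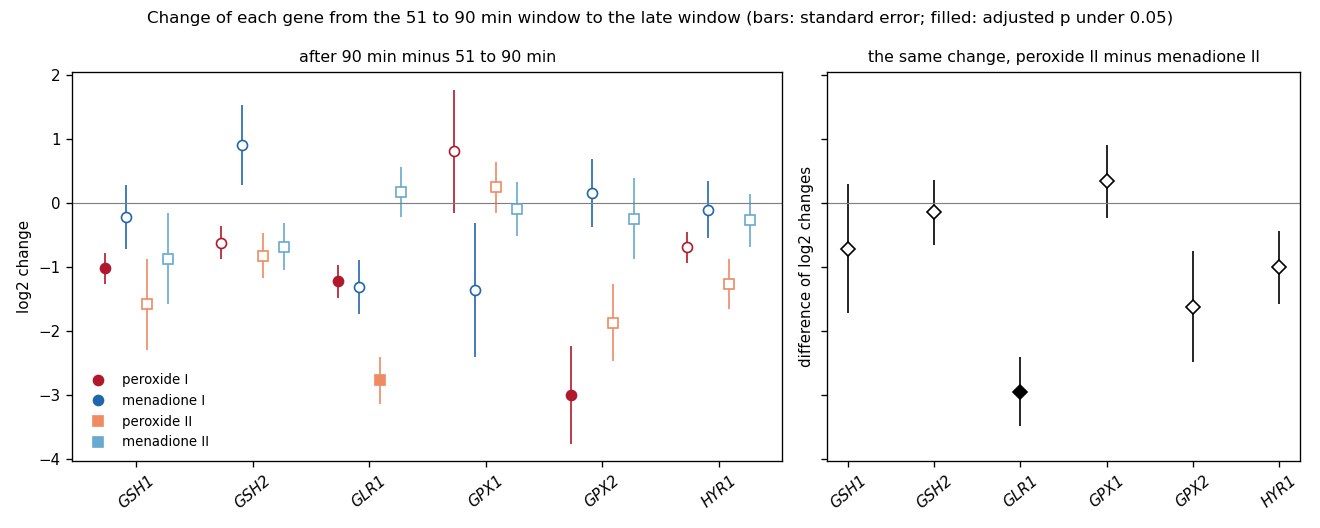
Left, log2 change of each gene from 51 to 90 min to the late window (y axis) in each course; right, the same change in peroxide II minus that in menadione II; bars are the standard error and filled symbols have an adjusted p under 0.05. GLR1 is filled for both peroxide courses and for the difference of -2.95, and no menadione symbol is filled.

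The other 5 members gave no difference between peroxide II and menadione II that passed. At 22 to 50 min 0% of 5500 genes passed (588 at an unadjusted p under 0.05, smallest adjusted p 0.0894), at 51 to 90 min 0.145% of 5517 and after 90 min 1.09% of 5519, with 0 of 6 members in each. The differences of HYR1 (1.34, 95% interval 0.15 to 2.54, adjusted p = 0.276) and GLR1 (1.14, 0.01 to 2.28, adjusted p = 0.333) at 51 to 90 min, and of GPX1 after 90 min (1.40, 0.18 to 2.62, adjusted p = 0.256), lay above 0 before adjustment over all genes.

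Among the peroxidases GPX2 passed at 51 to 90 min in every course. In peroxide I it stood at 2.23, 4.09 and 4.73 at 30, 40 and 49 min, 4.81 at 55 min and 3.68 to 4.10 at 63 to 85 min, with the 63 min pair at 3.29 and 4.47, against -0.74, 0.11 and 0.17 at 0, 14 and 20 min. From 40 to 140 min it lay at or above the 99.7th percentile of its array, and no value from 30 to 155 min overlapped the baseline. The rise at 51 to 90 min was 4.24 ± 1.01 (adjusted p = 0.00534, limma), the 9th highest of 5551 genes. The earlier change of 3.84 ± 1.13 missed the threshold (adjusted p = 0.117, limma). Without the 30 min array, the lowest of its window, it was 4.56 ± 1.24 (adjusted p = 0.0287, limma). This was the 1 of 16 alternatives that passed, and the highest adjusted p was 0.748.

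GPX2 then declined in peroxide I to 3.39, 3.52 and 3.70 at 105, 112 and 120 min, 2.13 at 140 min and 1.85 at 155 min, and from 170 min on it stood between -1.25 and -0.03. The late window as a whole gave 1.24 ± 0.91 (adjusted p = 0.83, limma), a mean over these different states. That window was also cut between 155 and 170 min, a split chosen after the values were seen. Its first part was 3.07 ± 0.48 above the baseline (adjusted p = 0.00228, limma) and its last part -0.58 ± 0.48 (adjusted p = 0.74, limma). Over all 5551 genes 42 passed in the first part and 6 in the last. From 51 to 90 min to the late window GPX2 fell by 3.00 ± 0.76 (adjusted p = 0.00939, limma); with arrays scaled to the same spread the fall was 1.99 ± 0.84 with an adjusted p of 0.204.

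In peroxide II GPX2 stood at 1.78, 3.26, 4.08 and 3.96 at 28 to 49 min, 3.55, 3.53, 3.27 and 2.67 at 56 to 77 min, 1.98, 2.09 and 2.31 at 100 to 140 min, 1.28 at 160 min and -0.70 at 180 min, against -1.33, -0.38, -0.38 and -0.11 at 0 to 21 min. Only the last array returned into the baseline range. The rise was 3.82 ± 0.63 at 22 to 50 min (adjusted p = 0.000431, limma) and 3.81 ± 0.63 at 51 to 90 min (adjusted p = 0.000198, limma). With window edges of 15, 45 and 80 min the earlier change was 2.94 ± 0.78 with an adjusted p of 0.081. The late change of 1.94 ± 0.60 missed the threshold (adjusted p = 0.143, limma) and passed in 2 of 19 alternatives, with adjusted p-values up to 0.62. Without the 180 min array it was 2.46 ± 0.57 (adjusted p = 0.0321, limma). Split between 140 and 160 min, its first part passed, as given above, and its last part of 2 arrays did not (0.84 ± 0.72, adjusted p = 0.958, limma). Over all genes 30 of 5518 passed in the first part and 2 of 5487 in the last, so this miss does not show a return to the baseline.

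In menadione I GPX2 stood at 0.46 at 30 min and between 3.15 and 4.44 on all arrays from 40 to 210 min, against -1.07, -1.51 and -0.80 at 0, 14 and 20 min. The highest value came at 140 min, and the last array still gave 4.12. The rise was 4.83 ± 0.60 at 51 to 90 min (adjusted p = 0.0004, limma) and 4.98 ± 0.58 after 90 min (adjusted p = 0.000169, limma), and the late window differed from the one before by 0.16 ± 0.53 (adjusted p = 0.966, limma). At 22 to 50 min, with the 30 and 40 min arrays far apart, the change of 3.35 ± 0.72 was the highest of 5498 genes but had an adjusted p of 0.827. Without the 30 min array only the 40 min array was left in that window, and the change was 5.12. Over its 13 alternatives the change ran from 1.59 to 5.12.

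In menadione II GPX2 stood at -0.72 at 28 min, 1.49, 1.85 and 2.96 at 35, 42 and 49 min, 3.28, 1.76, 0.98 and 1.43 at 56, 63, 77 and 85 min and 1.02, 2.10, 1.74 and 1.61 at 100 to 140 min, against -0.36, -0.99, -1.66 and -1.50 at 0 to 21 min. Every array from 35 min on lay above the baseline. The rise was 2.99 ± 0.63 at 51 to 90 min (adjusted p = 0.00535, limma) and 2.75 ± 0.63 after 90 min (adjusted p = 0.0129, limma; 2.57 ± 0.69 and 0.0511 without the 14 min array). The change of 2.52 ± 0.63 at 22 to 50 min had an adjusted p of 0.0993 (limma). Without the 28 min array it was 3.23 ± 0.60 (adjusted p = 0.0153, limma), the 1 of 16 alternatives that passed. Over these alternatives the change was as low as 1.29 and the adjusted p as high as 0.784. The fitted rise was not shown to differ between peroxide II and menadione II at 51 to 90 min (0.82, 95% interval -1.0 to 2.63, adjusted p = 0.724, limma).

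The late decline of GPX2 in peroxide II, 1.87 ± 0.60 below 51 to 90 min, missed the threshold (adjusted p = 0.0787, limma), and its value in menadione II was -0.24 ± 0.63 (adjusted p = 0.944, limma). Their difference was -1.62 (95% interval -3.39 to 0.15, adjusted p = 0.489, limma). In menadione II 0.0361% of 5538 genes passed this late contrast, and in menadione I 0% of 5552 (360 at an unadjusted p under 0.05, smallest adjusted p 0.209), with no member in either. GSH1 fell in peroxide I (-1.02 ± 0.24, adjusted p = 0.0049, limma), which made 3 of 6 members with GLR1 and GPX2, beside 14% of 5551 genes.

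HYR1, the peroxide sensor among the homologues, passed in 1 course. In peroxide II it stood at 1.57, 1.72, 2.45 and 2.08 at 56, 63, 70 and 77 min, against 0.51, 1.02, 0.21 and 0.99 at 0 to 21 min. These 4 values lay above the baseline, and the rise was 1.28 ± 0.42 (adjusted p = 0.0371, limma). The call was kept in 9 of 18 alternatives. It was lost without any 1 of the 0, 14, 63, 70 or 77 min arrays (1.11 to 1.35, adjusted p from 0.0556 to 0.111). With scan day as a covariate the change was 0.87 ± 0.45 with an adjusted p of 0.316 (limma). Scaled arrays (adjusted p = 0.0876, limma), other window edges (adjusted p = 0.108, limma) and the first scan day alone (adjusted p = 0.126, limma) also lost the call.

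In peroxide I HYR1 first stood below its baseline, at -0.18, -0.38 and -0.38 at 30, 40 and 49 min, against 0.80, 0.31 and 0.47 at 0, 14 and 20 min, and then above it, at 0.92 to 1.74 at 55 to 85 min. Neither window passed (-0.84 ± 0.36, adjusted p = 0.284, and 0.76 ± 0.33, adjusted p = 0.128, limma). The repeated arrays of 63 min gave -0.03 and 1.87 for HYR1. In menadione II it stood at -0.86 to 0.62 at 28 to 49 min, against 0.70 to 1.55 before, without overlap (-1.08 ± 0.42, adjusted p = 0.457, limma), and at 0.52 to 1.31 at 56 to 85 min. In menadione I it changed by 0.90 ± 0.50 at 51 to 90 min (adjusted p = 0.435, limma), and its 2 probes gave 1.47 and 0.32 there.

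GPX1 passed nowhere, and single arrays of it lay far from the rest. Its ratios lay between -0.82 and 1.48 on 17 of the 19 times of peroxide I that had a value, but at -3.0 at 55 min and at 7.27 at 170 min, and in menadione I at 5.57 at 77 min beside 0.60 to 1.27 at the other times of that window. In peroxide II it was low at 35 and 42 min (-2.57 and -1.50), against -0.83 to 0.13 at 0 to 21 min (change at 22 to 50 min -0.85 ± 0.42, adjusted p = 0.257, limma). In menadione II all 12 later values (0.20 to 1.19) lay below the 3 baseline values (1.30 to 1.57), with changes of -0.56 to -0.65 and adjusted p-values from 0.494 to 0.793.

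Other genes of the pathway were counted at 51 to 90 min from lists by function. Beside each list, 363 of all 5551 genes tested rose in peroxide I and 68 of 5552 in menadione I. In peroxide II 496 of 5519 rose, and in menadione II 120 of 5537. Of 19 genes that use glutathione (glutaredoxins, glutathione transferases and glyoxalases among them) 7 rose in peroxide I, 3 in menadione I, 8 in peroxide II, and 2 for menadione II, and none fell; the medians were 0.70, 0.55, 1.22 and 0.35. The omega-class transferase ECM4 rose in all 4 courses, by 3.66 ± 0.60, 3.33 ± 0.48, 5.86 ± 0.90 and 3.33 ± 0.90 (adjusted p from 0.000115 to 0.0271, limma), and so did the glutaredoxin GRX2, by 3.48 ± 0.48, 2.60 ± 0.40, 2.50 ± 0.51 and 2.39 ± 0.51. The transferase GTT1 rose in peroxide I (2.79 ± 0.61) and peroxide II (3.18 ± 0.71). The S-formylglutathione hydrolase YJL068C rose in peroxide II (2.47 ± 0.45, adjusted p = 0.000518, limma).

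Around synthesis the lists were short, with 5 and 9 genes, and whether their counts differ from those of all genes was not tested. Of all genes tested, 15.3%, 1.91%, 14% and 5.04% passed in either direction, in the course order of the counts below. Of 5 genes of cysteine supply 1 rose in peroxide I, 0 in menadione I, 2 in peroxide II (STR2, 1.71 ± 0.51, and the cystathionine gamma-lyase CYS3, 1.23 ± 0.35) and 1 in menadione II (MET17, 1.51 ± 0.45), with medians of 0.68, -0.12, 0.97 and 0.46. Of 9 genes of glutathione transport and breakdown none rose in any course, and 1, the exchanger GEX1, fell in peroxide I (-2.19, adjusted p = 0.00825, limma; named after its value was seen). Their medians were -0.10, 0.08, 0.27 and 0.31.

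Of 11 genes that supply NADPH, the reductant of Glr1, 2 rose in peroxide I, 1 in menadione I, 4 in peroxide II, and 2 for menadione II, with medians of 0.29, 1.20, 1.21 and 0.33. ZWF1, the glucose-6-phosphate dehydrogenase that opens the pentose phosphate pathway, rose in all 4, by 2.51 ± 0.45, 2.44 ± 0.54, 2.92 ± 0.52 and 2.35 ± 0.52 (adjusted p from 0.000407 to 0.0285, limma). GND2, IDP1 and UTR1 rose in peroxide II (2.15 ± 0.69, 1.94 ± 0.44 and 1.21 ± 0.37). The 1 fall, in peroxide I, was that of the aldehyde dehydrogenase ALD6 (-3.09, adjusted p = 0.00101, limma; named after its value was seen).

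The other enzymes that remove peroxide had medians of 2.53 in peroxide I, 2.27 in menadione I, 2.77 in peroxide II, and 2.12 for menadione II. Of their 8 genes 7, 4, 6 and 4 rose. The peroxiredoxin TSA2 rose in all 4 courses, by 5.93 ± 1.28, 5.48 ± 0.56, 5.31 ± 0.81 and 3.93 ± 0.81, as did TSA1, by 2.51 ± 0.70, 3.71 ± 0.57, 3.22 ± 0.51 and 2.45 ± 0.51. The cytochrome c peroxidase CCP1 (5.16 ± 0.89 in peroxide II) and the mitochondrial peroxiredoxin PRX1 (4.55 ± 0.63) were past the threshold in 3 courses each.

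Of 5 thioredoxin and thioredoxin reductase genes 3 rose in peroxide I, 2 in menadione I, 3 in peroxide II, and 2 for menadione II, with medians of 1.06, 0.50, 1.40 and 0.61. TRR1, the cytosolic thioredoxin reductase, rose by 3.24 ± 0.71, 3.00 ± 0.57, 3.99 ± 0.62 and 2.78 ± 0.62 in that order, and TRX2 by 3.64 ± 0.89, 2.12 ± 0.38, 2.60 ± 0.54 and 2.22 ± 0.54. TRX3, the mitochondrial thioredoxin, rose in peroxide II (1.40 ± 0.36). Of 7 regulators 2 rose in each peroxide course and none in a menadione course, with medians of 0.46, 0.23, 0.77 and 0.61. Over all genes 15.3% and 14% passed in peroxide I and peroxide II, in either direction. In menadione I and menadione II 1.91% and 5.04% did so. YAP1, whose product activates GSH1, GLR1 and GPX2 among many genes, rose by 1.42 ± 0.47 in peroxide I and 2.28 ± 0.60 in peroxide II, and CAD1, a Yap1 homologue, by 1.33 ± 0.42 in peroxide II. In menadione II YAP1 changed by 0.72 ± 0.56 (adjusted p = 0.515, limma).

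**Figure D4:**
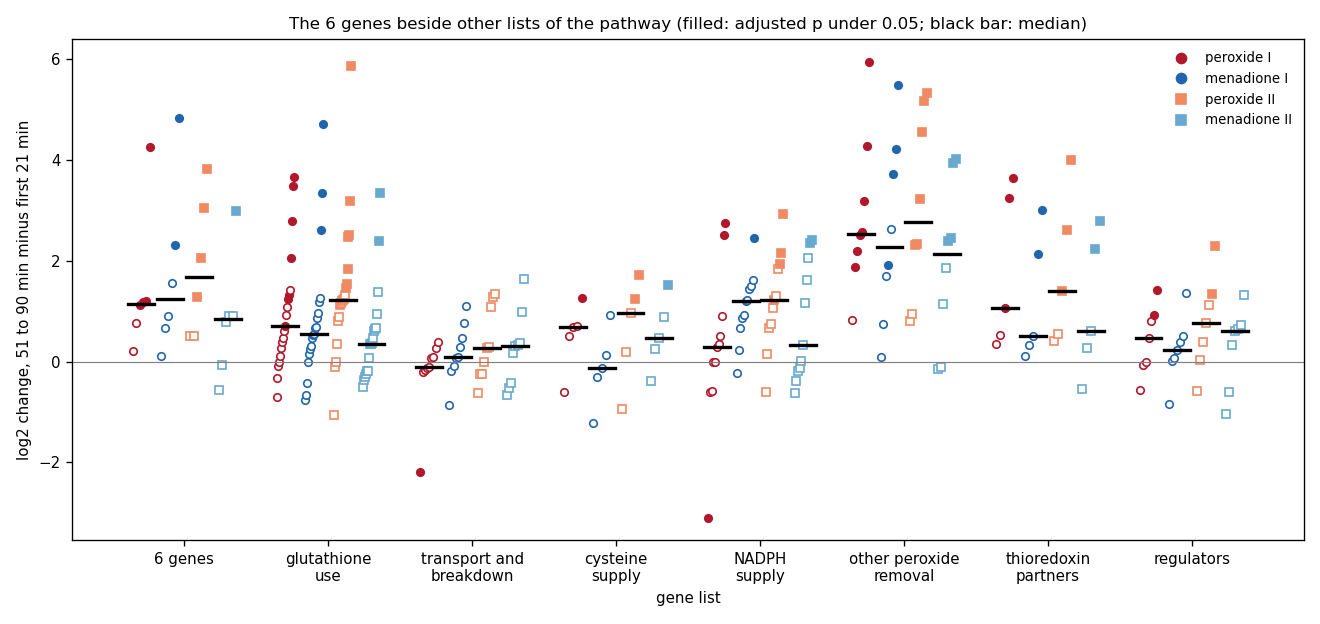
Log2 change from the first 21 min to 51 to 90 min (y axis) for the 6 genes and 7 lists (x axis) in the 4 courses; each point is a gene, filled points have an adjusted p under 0.05 and black bars are medians. Peroxide-removal genes have the highest medians, from 2.12 to 2.77, against 0.84 to 1.67 for the 6 genes.

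The second series was released from G1 arrest and peroxide I synchronised with alpha factor, per the labels, and genes of the pheromone response were counted for this in all 4 courses. Of 16 genes 2 fell in peroxide I, 0 in menadione I, 3 in peroxide II, and 2 for menadione II at 51 to 90 min, and none rose (medians -0.47, -0.25, -0.99 and -0.80). Over all genes 484 of 5551 fell in peroxide I, 38 of 5552 in menadione I, 278 of 5519 in peroxide II, and 159 of 5537 for menadione II. The a-factor gene MFA1 fell by 3.49 ± 0.31, by 3.07 ± 0.53 and by 3.11 ± 0.53 in peroxide I, peroxide II and menadione II. In peroxide II AGA2 changed by -3.21 ± 0.59 and GIC2 by -1.34 ± 0.39, and in menadione II FIG2 by -2.01 ± 0.49, all past the threshold. The part of the release in the changes of the 6 members was not tested.

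The genes most like each member were taken by Pearson's r of the centred log2 ratios over the 33 arrays of the second series. Its courses share the array design and most, but not all, times. GPX2 had the closest: TRR1 (r = 0.92), PRX1 (0.90) and YNL134C (0.90), and in the first series these gave r of 0.96, 0.87 and 0.93 over 23 arrays of peroxide I and 0.84, 0.81 and 0.93 over 14 of menadione I. GLR1 was most like FLR1 (0.80), a transporter of the plasma membrane, SFA1 (0.79) and ZWF1 (0.79), with 0.83, 0.84 and 0.76 in peroxide I and 0.31, 0.62 and 0.51 in menadione I. Both are descriptions over arrays that share a culture or a reference.

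For the other 4 members likeness in the first series varied between genes. GSH1 was most like RSM28, YVC1 and ECM30 (r = 0.80, 0.79 and 0.77), with 0.52, 0.39 and 0.15 in peroxide I and 0.09, 0.57 and -0.10 in menadione I. GSH2 was most like MRP51, MID1 and SEC23 (0.77, 0.75 and 0.74), with 0.44, -0.03 and 0.09 in peroxide I and 0.40, 0.25 and 0.05 in menadione I. GPX1 was most like MNE1, JNM1 and TOS2 (0.71, 0.71 and 0.69), with 0.75, 0.40 and 0.28 in peroxide I and 0.28, 0.56 and 0.52 in menadione I. HYR1 was most like RPN2, PDB1 and YPS6 (0.67, 0.67 and 0.65), with 0.56, 0.27 and 0.30 in peroxide I and 0.27, -0.17 and 0.89 in menadione I. Among the members themselves GPX2 and GLR1 gave r of 0.78 in peroxide I, 0.37 in menadione I, 0.69 in peroxide II, and 0.75 for menadione II, and GPX2 and GSH1 0.57, 0.73, 0.86 and 0.35. GPX2 and GPX1 gave -0.21, 0.01, -0.12 and -0.19, and GPX2 and HYR1 0.36, 0.42, 0.35 and -0.33.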

How the data were processed

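RNA of 4 time courses was measured on 70 2-colour arrays of 3 designs. The values are log ratios that the authors deposited, taken as log2: the base, spot filter, background correction and normalisation are not given in the sources used here, and the base was not tested. Per the labels, Cy5 carried the culture and Cy3 the asynchronous reference. Probes were named from the platform annotation (6625 probes with 1 gene in peroxide I, 9565 in menadione I and 6570 in the second series; 3359, 3491 and 8406 not in it were left out). Values were averaged over the probes of a gene and, in peroxide I, over the repeated arrays of 20 and 63 min, after the median gene of an array had been set to 0. Of an array, 4.1% to 10.7% of values were missing in peroxide I, 6.3% to 14.5% in menadione I and 1.2% to 26.9% in the second series. No column was without a sample. The number of arrays limits the precision.

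A gene was tested if 75% of a table's arrays, and 2 arrays in each window, had its value. Where leaving out an array left 1 array in a window, its value was enough. The limma package 3.58.1 (R 4.3.3) fitted 1 mean per window and course, with eBayes, each contrast a coefficient, and Benjamini-Hochberg adjustment over all genes of a comparison at 0.05. The second series was fitted as 1 table, which gave the difference between its courses; the first series was not tested against it. The fit was tested on simulated data. Beside the 15 comparisons of the design, 5 contrasts of the late window against 51 to 90 min and the cut of the late window were chosen after the values were seen. The members and lists were chosen with earlier results of these data known. All 6 members were named; each list named up to 4 genes past the threshold at 51 to 90 min in peroxide II, then menadione II, by size of change; per member the 3 genes with the highest r were named. Alternatives changed the centring, scaling, filter, probe summary, window edges, arrays in the fit, array weights, scan day, shared time, repeated arrays, and left out each of 68 arrays in turn. No sequence is printed and no coordinates are given, since the files name no genome build.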

Additional observations from a re-analysis of the deposited data

Results flagged for a closer look

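Within windows of 4 to 10 times, 6 of 68 sets of values of a member held an array far from the others by Dixon's criterion, where chance gives about 1 in 20. GPX1 held 3 of them: 5.57 at 77 min of menadione I, -3.0 at 55 min and 7.27 at 170 min of peroxide I. HYR1 stood at -0.71 at 28 min and at -0.36 at 140 min of peroxide II, and GSH1 at 3.16 at 210 min of menadione I, where 1 of its 2 probes gave that value alone. The 28 min array of peroxide II was scanned on another day than the rest of its window. What set these values was not tested.

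The change of GLR1 from 51 to 90 min to the late window differed between peroxide II and menadione II by -2.95 (adjusted p = 0.0135, limma), with changes of -2.77 and 0.18 there; with shared time as a block it was -2.60 (adjusted p = 0.351, limma). The late window of peroxide II runs to 180 min and that of menadione II to 140 min. Each agent is 1 culture, scanned on days of its own, so culture, scan day and agent cannot be told apart for this difference.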

How the results depend on the processing

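No paired analysis was possible because the replicate numbers follow accession order and mark no shared culture. Time shared by both courses of the second series was tried as a block for their differences: 0 members passed in each window and, of 1 without it, 0 for the late window against 51 to 90 min (GLR1 -2.60, adjusted p = 0.351, limma). Of 373 alternative values of changes that passed the threshold, 330 passed in the same direction, 43 missed it and 0 changed sign. These totals include the late contrasts chosen after the values were seen. Of those, GLR1 passed in 18 of 18 alternatives in peroxide II and 25 of 26 for its difference from menadione II. In peroxide I GLR1 and GSH1 each passed in 24 of 24 and GPX2 in 23 of 24. Of 1642 values of changes that passed in no setting 83 changed sign, none larger than 0.53 afterwards. The number of members past the threshold, 2 in peroxide II at 22 to 50 min, was 0 with other window edges and 1 with the compared windows alone; at 51 to 90 min of peroxide II it was 2 with scan day as a covariate, of 4. Scaled arrays gave 1 in the late window of peroxide II, of 0. In peroxide I at 51 to 90 min it was 1 with scaled arrays and 2 with the compared windows alone, of 4. In menadione I it was 1 with scaled arrays, other edges or the compared windows alone, of 2. For the late window against 51 to 90 min, array weights gave 4 in peroxide II and 5 in peroxide I, of 1 and 3, and 2 came in peroxide II with a value in every array or the first scan day alone. With 1 array left out, the number of members past the threshold in peroxide II ran from 1 to 3 at 22 to 50 min. At 51 to 90 min of that course it ran from 2 to 4, and after 90 min from 0 to 1. In menadione II it ran from 0 to 1 at 22 to 50 min and from 0 to 1 after 90 min. In peroxide I it ran from 0 to 3 at 22 to 50 min and from 1 to 4 at 51 to 90 min. In menadione I it ran from 1 to 2 at 51 to 90 min. No number is given for 22 to 50 min of menadione I, where leaving out 1 of 2 arrays leaves 1. Over all genes, the calls at 51 to 90 min were 847 in peroxide I (596 to 1140 over the alternatives), 106 in menadione I (13 to 247), 774 in peroxide II (202 to 1025) and 279 in menadione II (73 to 322). At 22 to 50 min they were 43 in peroxide I (1 to 385) and 217 in peroxide II (6 to 690). After 90 min they were 73 in menadione I (22 to 95) and 160 in menadione II (74 to 233), and 17 for the late difference between peroxide II and menadione II (0, with shared time as a block, to 116). They were 6 after 90 min of peroxide I (3 to 30), 35 after 90 min of peroxide II (6 to 126), and 0, 8 and 60 in the differences between peroxide II and menadione II by window (0 to 82, 0 to 62 and 0 to 241). For the late window against 51 to 90 min they were 778 in peroxide I (349 to 1242), 173 in peroxide II (61 to 690) and 2 in menadione II (0 to 9), and for 22 to 50 min of menadione II 0 (0 to 10). The causes of these shifts were not tested. Signal over background is not in the files used here.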
